A study of Mus musculus with 32 samples.

Results

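Potassium channels are the family examined here: 75 genes whose symbols start with Kcn, out of 51267 features counted in the total RNA. The files hold 99 features with such a symbol, of which 94 are annotated as protein coding and 5 as antisense RNAs. A gene was kept when it had 10 or more counts in 4 or more of the 16 total RNA libraries, whatever their treatment. These counts were not scaled, so library depth and level could both affect the choice. The 19 protein-coding genes left out had too few counts, among them Kcnq1, Kcnj5, Kcnj8 and Kcne2. Just inside the limit were Kcnn4, with 10 or more counts in 5 libraries, and Kcnh4, in 6. Kcne4, Kcnj14 and Kcnk7 fell just outside, each with 3 libraries.

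The cells were neurons grown from hippocampi of newborn mice and collected at 16 days in vitro. The treatment lasted 30 minutes. Forskolin (FSK, 50 µM) switches on adenylyl cyclase, the enzyme that makes cAMP. DHPG (30 µM) stimulates group I metabotropic glutamate receptors, which couple to phospholipase C and calcium release. DMSO served as the control. The labels give no strain, sex or genotype and do not say how many animals were pooled, or whether the libraries of a group are separate cultures. P-values therefore measure the spread between these libraries, which may be technical. The analysis rests on 6 FSK, 6 DHPG and 4 DMSO libraries.

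Potassium channels let potassium leave the cell and so set the resting potential, repolarise the action potential and space out spikes. Pore subunits of the voltage-gated (Kv) group assemble as tetramers, modifier subunits form channels only together with them, and auxiliary subunits alter gating and trafficking. Inward rectifiers hold the membrane near rest, tandem-pore (K2P) channels carry leak current, and calcium- or sodium-activated channels follow spiking with an outward current. cAMP and metabotropic glutamate receptors are both known to act on several of these proteins directly, through phosphorylation or lipids, and the counts here measure RNA and not current. The 75 genes comprise 27 Kv pore subunits, 9 modifier subunits, 10 auxiliary subunits, 10 inward rectifiers, 10 K2P channels, 8 calcium- or sodium-activated channels, and Kcnrg, a cytoplasmic protein that limits assembly of Kv channels.

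Total counts ranged from 20677117 to 59958600 per library, and the channel genes took 0.176 to 0.283% of them. The lowest shares were those of FSK 4 (0.176%) and FSK 5 (0.185%), and the other 14 libraries had 0.227 to 0.283%. FSK 4 to 6, DHPG 6 and DMSO 2 to 4 had over 30000000 counts (the deep set, 7 libraries), with 10.8 to 27.7% mitochondrial rRNA. FSK 1 to 3, DHPG 1 to 5 and DMSO 1 had fewer (the shallow set, 9 libraries), with 1.47 to 2.92%. The labels name no such batch, and it is partly confounded with treatment. FSK 4 and FSK 5 stood apart on the first principal component (44.1% of the variance). Their microglial markers summed to 145 and 269 CPM (counts scaled to library size), against 5.58 to 28.9 CPM in the other 14 libraries. Neuronal and glial markers were present in all libraries. In bulk RNA, fewer cells of a type and less RNA per cell cannot be told apart.

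Levels are given in CPM, scaled by library size and TMM factor, and are not corrected for transcript length, so they are compared between libraries and not between genes. Mean levels were under 1 CPM for 10 of the channel genes, 1 to 10 CPM for 22, 10 to 100 CPM for 38 and at least 100 CPM for 5. All 75 passed the filter of the test, edgeR's quasi-likelihood F test over 17173 features, with Benjamini-Hochberg adjustment over all of them and a limit of 0.05. Errors of mean levels are SD (n = 6 FSK, 6 DHPG and 4 DMSO), and errors of log2 fold changes are standard errors.

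The clearest differences lay between the 2 agents. With FSK, 16 channel genes were lower and 8 higher than with DHPG. The lower ones include the ERG channel gene Kcnh2, the ELK channel gene Kcnh3, the BK channel subunit gene Kcnmb4, the SK channel gene Kcnn1 and Kcnab2, a beta subunit. The higher ones include the inward rectifier genes Kcnj2, Kcnj10 and Kcnj16. The 24 genes are 32.0% of the 75, and the share over all features tested was 30.8%. The lower genes are 21.3% of the family, against 14.4% of all features, and the higher genes 10.7%, against 16.3%; these differences in share were not tested. Its median log2 fold change was -0.10, against 0.03 over all features. The plot of fold changes by gene shows how they divide by class.

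**Figure D1:**
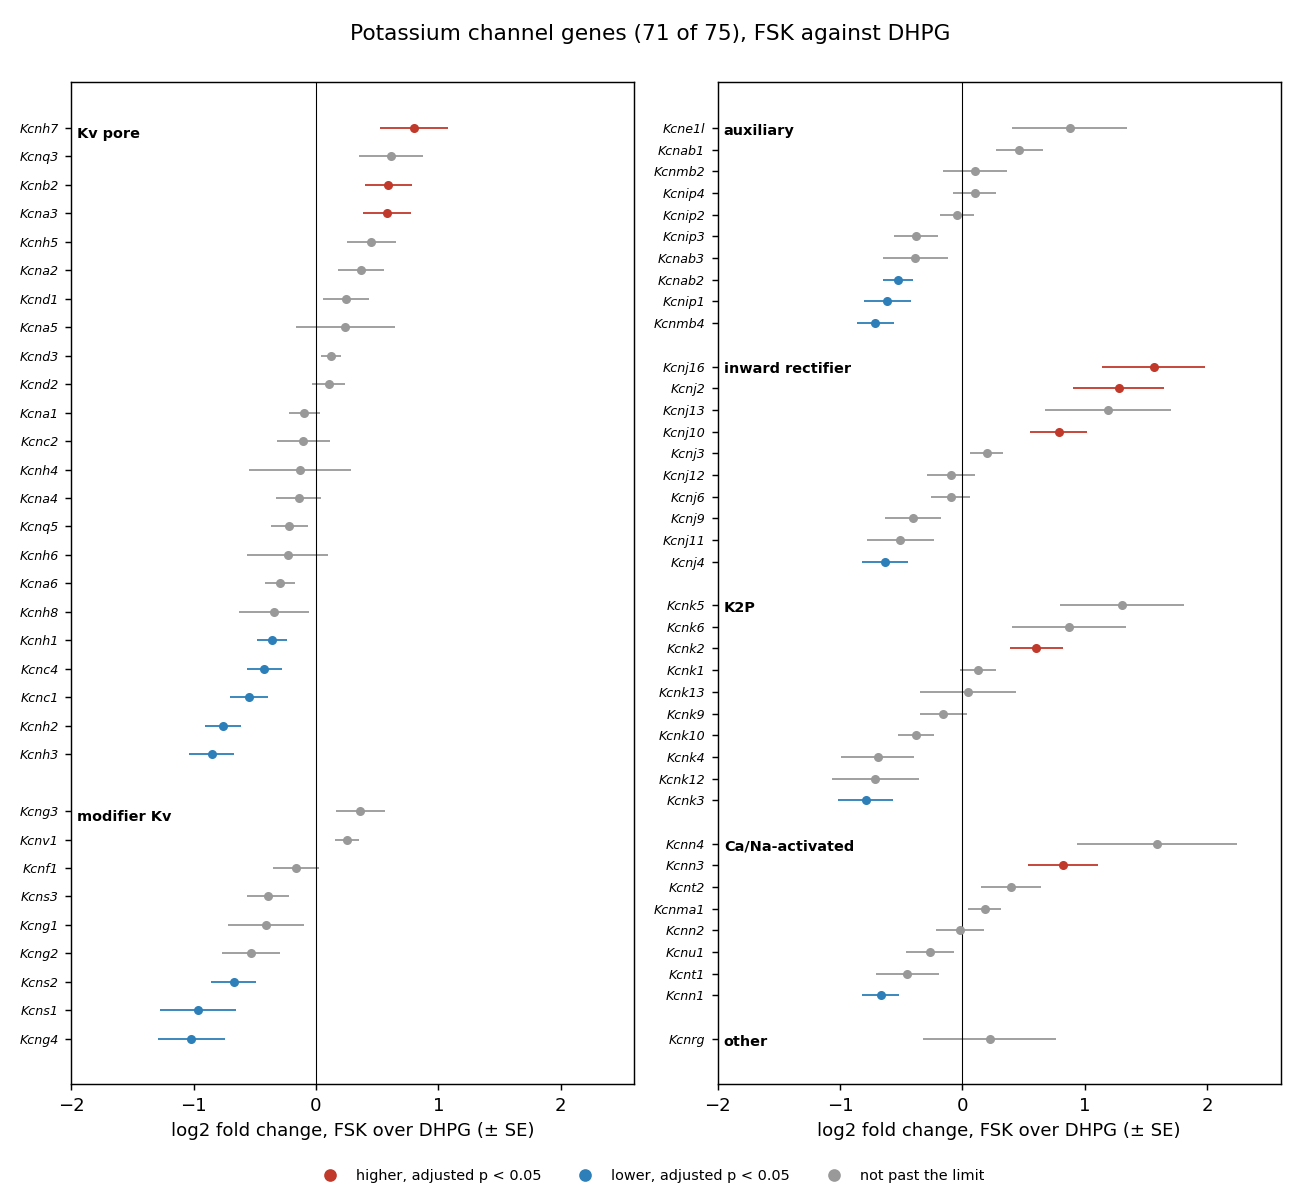
Log2 fold change of FSK over DHPG for 71 of the 75 potassium channel genes (x axis, with standard error), grouped by class and ordered by size; colour marks adjusted p under 0.05. The 14 lower genes shown are spread over every class but Kcnrg, and 3 of the 8 higher ones are inward rectifiers.

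These calls depend on FSK 4 and FSK 5 and on the library set. With a term for the library set, 17 channel genes passed, all of them among the 24, against 23.3% of all features. With that term and without FSK 4 and FSK 5, 11 of 74 passed, again all among the 24 (14.9%), against 9.27% of 16723 features. Without FSK 4 and FSK 5 and without the term 0 of 74 passed, with 3 calls over all features. Shared by the fit of all libraries, the fit with the term, and that fit without FSK 4 and FSK 5 were 10 genes: Kcnab2, Kcng4, Kcnh2, Kcnh3, Kcnk3, Kcnmb4 and Kcnn1, all lower, and Kcnj2, Kcnj16 and Kcnn3, all higher. Within the shallow libraries alone, where FSK 1 to 3 face DHPG 1 to 5, the differences in mean log2 CPM were -0.16 to -1.06 for the 16 lower genes and 0.38 to 1.14 for the 8 higher ones. These libraries are part of the fit that chose the 24 genes, so their sign is a description and no independent check. No channel gene passed in a fit of the shallow libraries alone, where edgeR called 9 of 17780 features. There 21 of 74 channel genes (28.4%) had an unadjusted p under 0.05, against 28.5% of all features. DESeq2 called 27 over all libraries, the 24 plus Kcnk5, Kcnk10 and Kcnv1. Single libraries also moved the count: the 24 became 14, 8 and 11 without DHPG 2, DHPG 3 and DHPG 5, and 13 and 8 without FSK 4 and FSK 5. With the term, the 17 became 9, 8 and 0 without DHPG 3, DHPG 5 and DHPG 6, and 0 and 11 without FSK 1 and FSK 2. Shares over all features are not given for DESeq2 or for fits without single libraries. Whether those shifts are particular to channel genes cannot be read from the counts.

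In the shallow libraries the 2 groups did not overlap for 21 of 75 channel genes, 11 higher and 10 lower with FSK. This was so for 19.9% of all features, 1662 higher and 1761 lower of 17173. Over all libraries, 8 of 75 were lower in every FSK library than in any DHPG library and 0 were higher in every one. Of all features, 7.24% were apart in either direction, 692 lower and 551 higher of 17173. Among these 8 are Kcnab2, Kcnh2, Kcnh3, Kcnk3, Kcnk10, Kcnmb4 and Kcnn1.

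**Figure D2:**
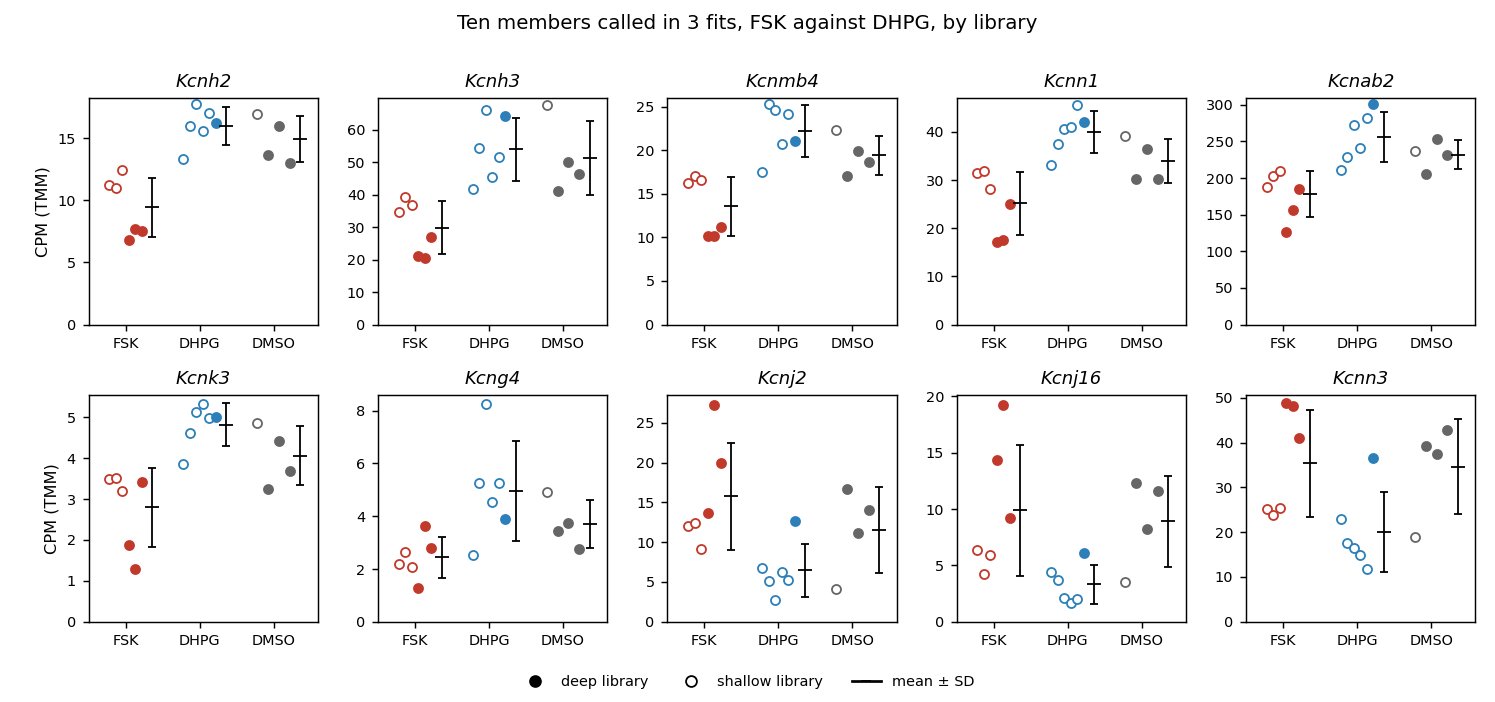
CPM (y axis) of the 10 potassium channel genes called FSK against DHPG in 3 fits, in each FSK, DHPG and DMSO library, filled for deep and open for shallow libraries, with mean ± SD. Kcnh2 lies at 6.82 to 12.4 CPM in FSK and at 13.3 to 17.7 CPM in DHPG; Kcnj2, Kcnj16 and Kcnn3 are higher in deep than in shallow libraries in each group.

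Among Kv pore subunits, the ether-à-go-go family supplied the smallest p. Kcnh2 (chr5:24319589-24351684, GRCm38.p6) encodes the ERG subunit best known for cardiac repolarisation. It had 6.82 to 12.4 CPM (median 9.34) in FSK, 13.3 to 17.7 CPM (median 16.1) in DHPG, and 16.9, 13.7, 16.0 and 13.0 CPM in DMSO 1 to 4. Every FSK library was below every DHPG and every DMSO library, and FSK 4 to 6 were lowest. The log2 fold change from DHPG was -0.76 ± 0.15 (adjusted p = 0.016), -0.68 ± 0.12 with the library-set term (adjusted p = 0.018) and -0.60 ± 0.12 when FSK 4 and FSK 5 were also left out (adjusted p = 0.042).

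Kcnh3 (chr15:99224517-99242818) encodes an ELK channel of the forebrain known to restrain hippocampal excitability. Its level was 20.5 to 39.3 CPM (median 30.8) in FSK, 41.8 to 66.2 CPM (median 53.0) in DHPG, and 67.5, 41.2, 50.2 and 46.5 CPM in DMSO 1 to 4. FSK again lay below both other groups without overlap. The log2 fold change against DHPG was -0.85 ± 0.18 (adjusted p = 0.016), -0.78 ± 0.16 with the term (adjusted p = 0.018) and -0.65 ± 0.16 with the term and without FSK 4 and FSK 5 (adjusted p = 0.042). Kcnh1, the EAG subunit, was lower too, at 35.4 ± 6.82 CPM in FSK and 45.4 ± 5.35 CPM in DHPG (log2 fold change -0.36 ± 0.12, adjusted p = 0.039; 0.068 with the term). Kcnh7, another ERG gene, went the other way. It had 8.35 to 17.0 CPM (median 15.1) in FSK, 4.19 to 14.6 CPM (median 6.99) in DHPG, and 6.19, 6.27, 8.34 and 10.5 CPM in DMSO 1 to 4. FSK 4 held the lowest FSK value of Kcnh7, and 3 of 6 FSK libraries lay above every DHPG library. Its log2 fold change was 0.80 ± 0.28 (adjusted p = 0.040), with an adjusted p of 0.053 with the term.

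The Shaw-type genes encode channels that open only on strong depolarisation and close fast, which allows rapid firing. Kcnc1 was lower with FSK than with DHPG, at 39.2 ± 6.87 CPM in FSK and 57.4 ± 10.5 CPM in DHPG (log2 fold change -0.55 ± 0.15, adjusted p = 0.021; with the term -0.44 ± 0.13, adjusted p = 0.030; also without FSK 4 and FSK 5, 0.075). Kcnc4 was also lower, at 18.5 ± 3.30 CPM in FSK and 24.8 ± 5.46 CPM in DHPG (log2 fold change -0.42 ± 0.14, adjusted p = 0.039; with the term and without FSK 4 and FSK 5, 0.12).

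Kcnq3 encodes a subunit of the M-current, a slow potassium current that muscarinic receptors shut off. It averaged 79.0 ± 19.3 CPM in FSK and 51.6 ± 20.5 CPM in DHPG and did not pass (log2 fold change 0.61 ± 0.26, adjusted p = 0.083).

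Delayed rectifier and Shaker-type genes showed 2 calls, both higher, where 16.3% of all features were higher. Kcnb2, a delayed rectifier subunit, averaged 18.2 ± 3.52 CPM in FSK and 12.1 ± 3.17 CPM in DHPG (log2 fold change 0.59 ± 0.19, adjusted p = 0.032; 0.055 with the term, and 0.048 when FSK 4 and FSK 5 were also left out). Kcna3, which microglia and lymphocytes also use, averaged 4.64 ± 0.684 CPM in FSK and 3.11 ± 0.912 CPM in DHPG (0.58 ± 0.20, adjusted p = 0.037; 0.037 with the term, and 0.070 when FSK 4 and FSK 5, the libraries with the highest microglial sums, were also left out). What microglia add to Kcna3 was not tested. The axonal Kcna1 (-0.09 ± 0.12, adjusted p = 0.57) and Kcna2 (0.37 ± 0.19, adjusted p = 0.14) did not pass. Nor did the A-type genes Kcna4 (-0.14 ± 0.18, adjusted p = 0.57), Kcnd2 (0.10 ± 0.13, adjusted p = 0.56) and Kcnd3 (0.13 ± 0.08, adjusted p = 0.24). The fast inactivating current of Kcnd2 channels limits back-propagating spikes in dendrites.

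Modifier subunits conduct no current alone and retune delayed rectifier channels. Of these 9 genes, 3 were lower with FSK than with DHPG and 0 higher, beside 14.4% lower and 16.3% higher of all features. Differences in share between classes were not tested. Kcng4 (chr8:119623854-119635680) had 1.30 to 3.64 CPM (median 2.41) in FSK, 2.54 to 8.25 CPM (median 4.90) in DHPG, and 4.90, 3.43, 3.73 and 2.76 CPM in DMSO 1 to 4. The groups overlapped, with 3 of 6 FSK libraries below every DHPG library, and the log2 fold change was -1.02 ± 0.28 (adjusted p = 0.019). Kcns2 averaged 8.79 ± 2.42 CPM in FSK and 14.0 ± 1.90 CPM in DHPG (-0.67 ± 0.18, adjusted p = 0.020; with the term and without FSK 4 and FSK 5, 0.052). Kcns1 averaged 1.09 ± 0.406 CPM in FSK and 2.13 ± 0.647 CPM in DHPG (-0.97 ± 0.31, adjusted p = 0.032; in the same smaller fit, 0.092). Kcnv1 did not pass (0.25 ± 0.10, adjusted p = 0.056), nor did Kcng3 (0.36 ± 0.20, adjusted p = 0.17).

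Of the 10 auxiliary subunit genes, 3 were lower and 0 higher, against 14.4% and 16.3% of all features. Kcnab2 (chr4:152390744-152477549) encodes a beta subunit that helps carry Shaker channels to the axon. It had 127 to 209 CPM (median 187) in FSK, 211 to 301 CPM (median 257) in DHPG, and 237, 206, 253 and 231 CPM in DMSO 1 to 4. No FSK library reached the DHPG range, and the log2 fold change was -0.52 ± 0.12 (adjusted p = 0.017), or -0.38 ± 0.10 (adjusted p = 0.042) with the term and without FSK 4 and FSK 5.

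Kcnmb4 (chr10:116417861-116473859) encodes the neuronal beta subunit of BK channels, which slows their gating. Its level was 10.2 to 17.0 CPM (median 13.7) in FSK, 17.5 to 25.3 CPM (median 22.6) in DHPG, and 22.3, 17.0, 19.9 and 18.6 CPM in DMSO 1 to 4. The FSK and DHPG groups did not overlap, and the 3 deep FSK libraries were lowest. The log2 fold change was -0.71 ± 0.15 (adjusted p = 0.016), -0.61 ± 0.11 with the term (adjusted p = 0.018) and -0.53 ± 0.11 with the term and without FSK 4 and FSK 5 (adjusted p = 0.042). The antisense transcript Kcnmb4os2 had 24 to 74 counts per library and Kcnmb4 378 to 829. Whether the counting used the strand is not given in the sources used here, so reads of these partners may be mixed, as for Kcnd3 and Kcnd3os.

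Kcnip1, a calcium-binding partner of A-type channels, averaged 22.6 ± 6.68 CPM in FSK and 34.5 ± 5.37 CPM in DHPG and was lower (-0.61 ± 0.19, adjusted p = 0.028; 0.051 with the term). Kcnip3, its relative that also acts as a transcriptional repressor under the name DREAM, had 64.8 ± 18.9 CPM in FSK and 84.2 ± 11.6 CPM in DHPG and did not pass (-0.38 ± 0.18, adjusted p = 0.11).

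Calcium-activated SK channels produce the medium afterhyperpolarisation, and their genes differed in direction. Kcnn1 (chr8:70843158-70865691) had 17.2 to 31.8 CPM (median 26.5) in FSK, 33.0 to 45.7 CPM (median 40.8) in DHPG, and 39.2, 30.2, 36.3 and 30.2 CPM in DMSO 1 to 4. All FSK libraries were below all DHPG libraries, and FSK 4 and FSK 5 were lowest, with a log2 fold change of -0.67 ± 0.15 (adjusted p = 0.016), or -0.45 ± 0.10 (adjusted p = 0.042) with the term and without FSK 4 and FSK 5.

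Kcnn3 (chr3:89520164-89672494) had 23.7 to 48.8 CPM (median 33.2) in FSK, 11.8 to 36.5 CPM (median 17.0) in DHPG, and 19.0, 39.2, 37.4 and 42.9 CPM in DMSO 1 to 4. The deep libraries of each group were above its shallow ones, and within the shallow set FSK averaged 24.8 CPM and DHPG 16.7 CPM with no overlap. This gave a log2 fold change of 0.82 ± 0.28 (adjusted p = 0.040) and 0.49 ± 0.13 with the term (adjusted p = 0.022). Kcnn2, the SK gene most tied to hippocampal plasticity, did not pass (-0.02 ± 0.20, adjusted p = 0.94). The BK pore gene Kcnma1 (0.18 ± 0.13, adjusted p = 0.30) and the sodium-activated Kcnt1 (-0.45 ± 0.26, adjusted p = 0.18) did not pass either.

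Of the 10 inward rectifier genes, 3 were higher and 1 lower, against 16.3% and 14.4% of all features. Kcnj2 (chr11:111066164-111076825) encodes a strong inward rectifier that clamps the resting potential. It had 9.13 to 27.3 CPM (median 13.0) in FSK, 2.72 to 12.7 CPM (median 5.76) in DHPG, and 4.11, 16.7, 11.2 and 14.1 CPM in DMSO 1 to 4. DMSO 1, the shallow DMSO library, was far below the other 3, and within the shallow set FSK averaged 11.2 CPM and DHPG 5.23 CPM with no overlap. Against DHPG the log2 fold change of Kcnj2 was 1.28 ± 0.37 (adjusted p = 0.023), 0.92 ± 0.23 with the term (adjusted p = 0.021) and 0.99 ± 0.22 with the term and without FSK 4 and FSK 5 (adjusted p = 0.042).

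Kcnj4, a related strong rectifier of forebrain neurons, was lower. It had 31.5 to 68.2 CPM (median 50.0) in FSK, 62.0 to 97.2 CPM (median 74.7) in DHPG, and 69.0, 65.5, 67.4 and 62.4 CPM in DMSO 1 to 4. The deep FSK libraries supplied the low values: in log2 CPM, FSK 1 to 3 differed from DHPG 1 to 5 by -0.19, and FSK 4 to 6 from DMSO 2 to 4 by -0.91. Kcnj4 differed from DHPG by -0.63 ± 0.19 (adjusted p = 0.025), and -0.46 ± 0.18 (adjusted p = 0.089) with the term and without FSK 4 and FSK 5. The G protein-gated GIRK genes, through which inhibitory receptors hyperpolarise neurons, did not pass: Kcnj3 at 0.20 ± 0.14 (adjusted p = 0.26), Kcnj6 at -0.10 ± 0.16 (adjusted p = 0.65) and Kcnj9 at -0.40 ± 0.23 (adjusted p = 0.18).

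Kcnj10 and Kcnj16 are known from astrocytes, where their products form a shared channel that takes up extracellular potassium. Kcnj10 had 106 to 199 CPM (median 142) in FSK, 45.5 to 127 CPM (median 84.5) in DHPG, and 102, 152, 100.2 and 133 CPM in DMSO 1 to 4. Kcnj16 (chr11:110968033-111027968) had 4.26 to 19.3 CPM (median 7.79) in FSK, 1.70 to 6.10 CPM (median 2.92) in DHPG, and 3.49, 12.3, 8.23 and 11.6 CPM in DMSO 1 to 4. Both were highest in FSK 4 and FSK 5, and 4 of 6 FSK libraries exceeded every DHPG library. The log2 fold changes were 0.79 ± 0.23 (adjusted p = 0.024) for Kcnj10 and 1.56 ± 0.42 (adjusted p = 0.019) for Kcnj16. With the term and without FSK 4 and FSK 5 Kcnj10 had 0.57 ± 0.25 (adjusted p = 0.12) and Kcnj16 0.89 ± 0.26 (adjusted p = 0.047).

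Some markers of astrocytes moved with them and others did not. All 7 listed markers (Gfap, Aqp4, Aldh1l1, Slc1a3, Gja1, S100b and Fgfr3) were measured and none was at 0 in every library. They summed to 2634 to 5404 CPM in FSK, 1708 to 2897 CPM in DHPG and 2156 to 4102 CPM in DMSO. With FSK against DHPG, 4 of 7 were called higher and 0 lower. Aldh1l1 leaned the other way, at 86.8 to 139 CPM in FSK and 127 to 165 CPM in DHPG. So did Fgfr3, at 83.4 to 97.0 CPM in FSK and 94.9 to 142 CPM in DHPG. In the shallow libraries alone the sums were 2634 to 2917 CPM in FSK and 1708 to 2551 CPM in DHPG. The part of astrocyte content in the values of Kcnj10 and Kcnj16 was not tested.

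Among other genes known outside neurons, Kcnn4, an intermediate-conductance channel of microglia and blood cells, had 0.111 to 1.49 CPM (median 0.203) in FSK, 0.0851 to 0.279 CPM (median 0.201) in DHPG, and 0.221, 0.885, 0.552 and 0.579 CPM in DMSO 1 to 4. Kcnn4 met the limit of 10 counts in 5 libraries, DMSO 2 to 4, FSK 4 and FSK 5, all deep, and in no DHPG library. Its highest values were those of FSK 4 and FSK 5, where the sum over the 9 microglial markers was also highest, and it did not pass (1.59 ± 0.65, adjusted p = 0.071). Kcnj13, a channel of the choroid plexus, likewise did not pass, at 0.645 ± 0.472 CPM in FSK and 0.285 ± 0.156 CPM in DHPG (1.19 ± 0.52, adjusted p = 0.086). The 7 markers of choroid plexus and ependyma summed to 41.7 to 462 CPM in FSK, 39.4 to 132 CPM in DHPG and 107 to 365 CPM in DMSO. What microglia and choroid plexus add to these genes was not tested.

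**Figure D3:**
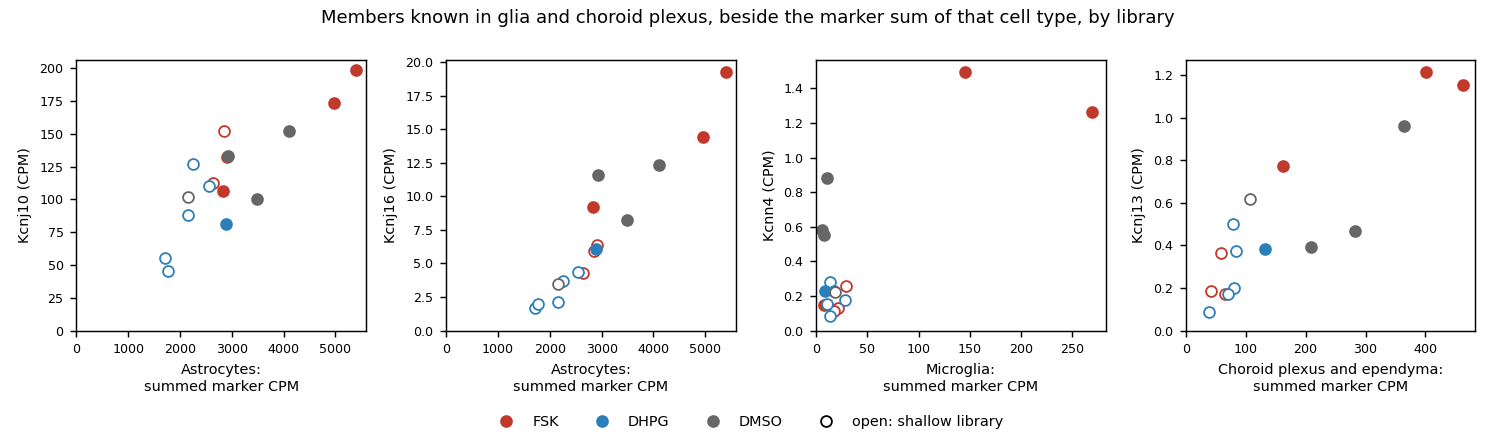
CPM of Kcnj10, Kcnj16, Kcnn4 and Kcnj13 (y axes) against the summed CPM of the marker genes of astrocytes, microglia, or choroid plexus and ependyma (x axes), 1 point per library, coloured by treatment and open for shallow libraries. FSK 4 and FSK 5 hold the highest astrocyte (4965 and 5404 CPM) and microglial (145 and 269 CPM) sums.

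Neuronal markers were also low in some FSK libraries. Excitatory markers summed to 815 to 1211 CPM in FSK, 1019 to 1601 CPM in DHPG and 1210 to 1547 CPM in DMSO, and 2 of 8 were lower and 0 higher with FSK than with DHPG. Inhibitory markers summed to 277 to 611 CPM in FSK, 529 to 607 CPM in DHPG and 386 to 639 CPM in DMSO, with FSK 4 and FSK 5 at 341 and 277 CPM; 1 of 8 was lower and 2 higher. The 5 general neuronal markers summed to 1700.2 to 2710 CPM in FSK, 2091 to 2643 CPM in DHPG and 2049 to 2911 CPM in DMSO, with 2 lower and 1 higher. In the shallow libraries alone, the excitatory sums were 1011 to 1049 CPM in FSK and 1019 to 1301 CPM in DHPG. The inhibitory sums there were 527 to 565 CPM in FSK and 529 to 607 CPM in DHPG, and the general neuronal sums 2457 to 2619 CPM in FSK and 2091 to 2643 CPM in DHPG. The part of neuronal content in the lower channel genes was not tested.

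Leak channels of the K2P group, 10 genes, gave 1 call each way, beside 14.4% lower and 16.3% higher of all features. Kcnk3, an acid-sensitive TASK channel that G protein-coupled receptors inhibit, had 1.29 to 3.52 CPM (median 3.31) in FSK, 3.86 to 5.32 CPM (median 5.00) in DHPG, and 4.86, 3.25, 4.42 and 3.68 CPM in DMSO 1 to 4. Every FSK library lay below every DHPG library (chr5:30588170-30625270; log2 fold change -0.79 ± 0.23, adjusted p = 0.023; with the term and without FSK 4 and FSK 5 -0.49 ± 0.14, adjusted p = 0.048). Kcnk2, the mechanosensitive TREK channel that protein kinase A closes, averaged 13.7 ± 4.14 CPM in FSK and 9.03 ± 1.39 CPM in DHPG and was higher with FSK than with DHPG (0.60 ± 0.22, adjusted p = 0.047; 0.11 with the term). Kcnk9, the other TASK gene (-0.15 ± 0.19, adjusted p = 0.54), and Kcnk1, a TWIK channel (0.13 ± 0.15, adjusted p = 0.51), did not pass. Kcnrg did not pass (0.22 ± 0.54, adjusted p = 0.77).

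Kcna5, Kcna6, Kcnab1, Kcnab3, Kcnc2, Kcnd1, Kcnf1, Kcng1, Kcng2, Kcnh4, Kcnh5, Kcnh6, Kcnip2, Kcnip4, Kcnj12, Kcnk4, Kcnk13, Kcnmb2, Kcnq5, Kcns3, Kcnt2 and Kcnu1, 22 genes in all, had log2 fold changes of FSK over DHPG between -0.69 (Kcnk4) and 0.47 (Kcnab1), 8 positive and 14 negative, and none had an adjusted p under 0.069. Over DMSO, FSK gave them -0.60 (Kcng2) to 0.65 (Kcnt2), and DHPG -0.50 (Kcnh5) to 0.53 (Kcnh4).

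**Figure D4:**
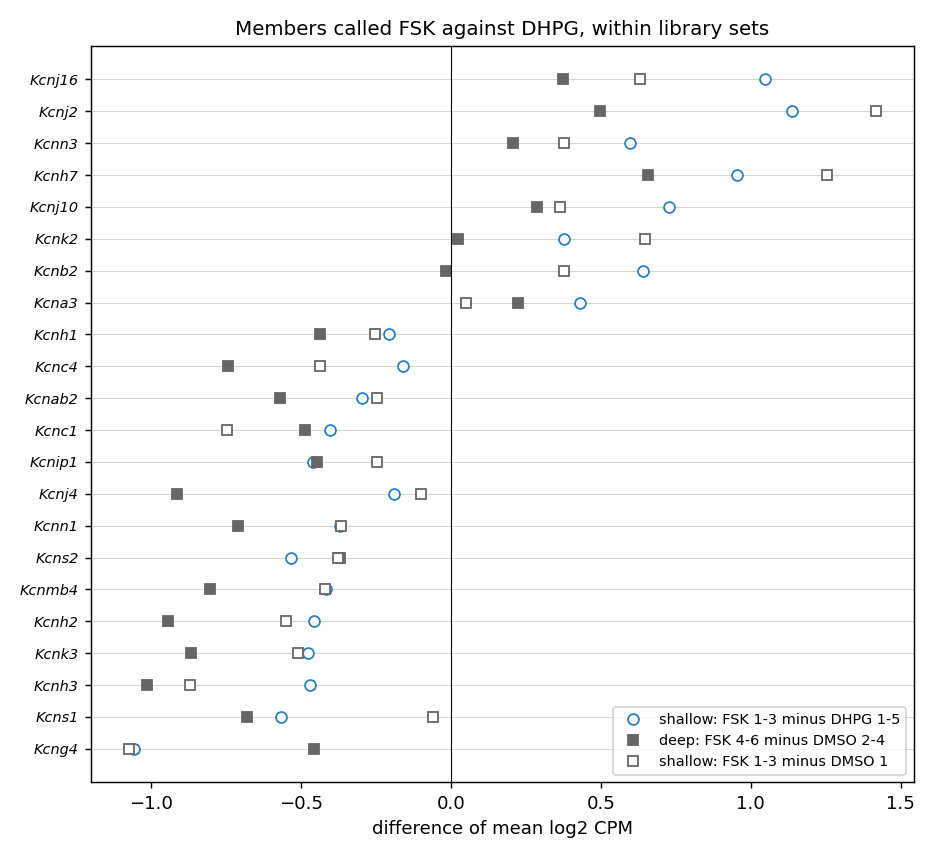
Differences of mean log2 CPM within a library set (x axis) for 22 of the 24 genes called FSK against DHPG (rows). Circles compare FSK 1 to 3 with DHPG 1 to 5, filled squares FSK 4 to 6 with DMSO 2 to 4, and open squares FSK 1 to 3 with the single shallow library DMSO 1. All 14 lower genes shown lie left of 0 in each contrast, and the 8 higher genes lie right of 0 except Kcnb2 in the deep contrast with DMSO. The genes were chosen with these FSK and DHPG libraries in the fit, so their signs are a description.

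cAMP is known to act on transcription through CREB, which binds the palindrome TGACGTCA or its shorter core TGACG, read as CGTCA on the other strand. RefSeq windows of 250 bases before to 50 after the start (GRCm38.p6) were given for 54 of the 75 genes, 77 windows in all. The full palindrome was in 0 of these 77, and in 1.79% of all 32851 windows in the table. A core was in 14 of the 77 (18.2%), against 20.8% of all windows and 28.9% of the windows of genes tested. Of the genes lower with FSK than with DHPG, 5 of 11 with a window held a core (Kcnab2, Kcnc1, Kcnc4, Kcnj4 and Kcnn1), and of the higher ones 0 of 7, beside 33.5% of all genes tested that have a window. Median GC content was 64.2% in the windows of the lower genes and 57.7% in those of the higher ones. A match describes letters and shows no binding. A gene was counted as holding a core when any of its windows did. The windows with a core of Kcnab2 (chr4:152477500-152477799, minus strand) and Kcnn1 (chr8:70863209-70863508, minus strand) are shown because both genes were called in 3 fits. That choice was made after their values were seen, and both genes also have windows without a core. Capitals mark the cores, and both windows shown run 5′ to 3′ along the gene.
Kcnab2: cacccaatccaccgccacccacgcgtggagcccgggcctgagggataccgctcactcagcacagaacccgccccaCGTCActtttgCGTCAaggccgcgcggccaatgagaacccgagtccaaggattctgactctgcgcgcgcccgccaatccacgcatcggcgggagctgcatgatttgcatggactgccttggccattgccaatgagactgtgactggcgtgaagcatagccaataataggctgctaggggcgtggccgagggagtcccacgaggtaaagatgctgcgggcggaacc
Kcnn1: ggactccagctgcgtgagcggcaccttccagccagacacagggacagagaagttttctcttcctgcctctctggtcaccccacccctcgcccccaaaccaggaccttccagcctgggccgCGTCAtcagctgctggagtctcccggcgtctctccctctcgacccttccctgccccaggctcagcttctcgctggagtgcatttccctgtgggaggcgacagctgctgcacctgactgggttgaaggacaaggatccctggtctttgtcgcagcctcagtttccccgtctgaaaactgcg

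Against DMSO, 30 minutes of FSK gave no channel gene past the limit. The count was 0 of 75, and 0.809% of all features passed. At unadjusted p under 0.05 were 14 (18.7%), against 21.3% of all features. The count was 2 without DHPG 6 and 1 without FSK 3. The log2 fold changes were negative for 50 genes and positive for 25, with a median of -0.14 against 0.02 over all features. With the library-set term 9 passed, against 9.45% of all features. Among them Kcnc1, Kcnc4, Kcnh2, Kcnh3, Kcnk12, Kcnmb4 and Kcnn1 were lower and Kcnk6 was higher. Without FSK 4 and FSK 5, 0 of 74 passed with or without the term. That count of 9 also changed with single libraries: it was 3 without DMSO 1, 4 without DMSO 2, 1 without DMSO 3, 5 without FSK 4, 3 without FSK 5 and 17 without FSK 6. Shares over all features are not given here for the fits without single libraries or for DESeq2. DESeq2 called 4, among them Kcnc4, Kcnh2 and Kcnh3. The authors' deposited table gives adjusted p under 0.05 for these 3, all lower, and for Kcnh7, higher.

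The genes of smallest p against DMSO include Kcnh2, Kcnh3, Kcnc4 and Kcnmb4, all lower with FSK in value. Kcnh2 and Kcnh3 had -0.66 ± 0.16 (adjusted p = 0.065; 0.0071 with the term) and -0.78 ± 0.20 (adjusted p = 0.073; 0.014 with the term). Kcnc4 had 12.7 to 20.8 CPM (median 20.2) in FSK, 20.3 to 33.0 CPM (median 22.4) in DHPG, and 27.8, 27.3, 28.4 and 26.3 CPM in DMSO 1 to 4. The 6 FSK values of Kcnc4 lay below the 4 DMSO values, which were tight (-0.57 ± 0.16, adjusted p = 0.084; 0.044 with the term). Kcnmb4 had -0.52 ± 0.17 (adjusted p = 0.11; 0.012 with the term).

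No overlap between FSK and DMSO was found for 4 of 75 genes, Kcnc1, Kcnc4, Kcnh2 and Kcnh3, all lower, and for 0 higher. Of all features, 7.98% were apart in either direction, 749 lower and 621 higher of 17173. Kcnc1 averaged 39.2 ± 6.87 CPM in FSK and 54.4 ± 12.5 CPM in DMSO (-0.47 ± 0.17, adjusted p = 0.14). DMSO 1 stood far above the other 3 DMSO libraries for this gene, at 73.2 CPM against 47.1 to 49.0 CPM. Kcnh7 had the largest positive value among the Kv pore genes, 0.86 ± 0.32 (adjusted p = 0.14), with 5 of 6 FSK libraries above every DMSO library. Kcnk6, a K2P gene also expressed by microglia, averaged 0.777 ± 0.524 CPM in FSK and 0.309 ± 0.191 CPM in DMSO (1.31 ± 0.53, adjusted p = 0.18; 0.039 with the term). Its highest values, 1.32 and 1.55 CPM, were in FSK 4 and FSK 5, the libraries with the highest microglial sums, and what microglia add was not tested. Kcnk12, a K2P gene of the THIK type, averaged 2.99 ± 1.89 CPM in FSK and 5.89 ± 0.871 CPM in DMSO (-0.99 ± 0.39, adjusted p = 0.16; 0.029 with the term). The deep FSK libraries supplied the low values of Kcnk12. In mean log2 CPM, FSK 4 to 6 differed from DMSO 2 to 4 by -2.13, and FSK 1 to 3 from the single library DMSO 1 by -0.28.

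**Figure D5:**
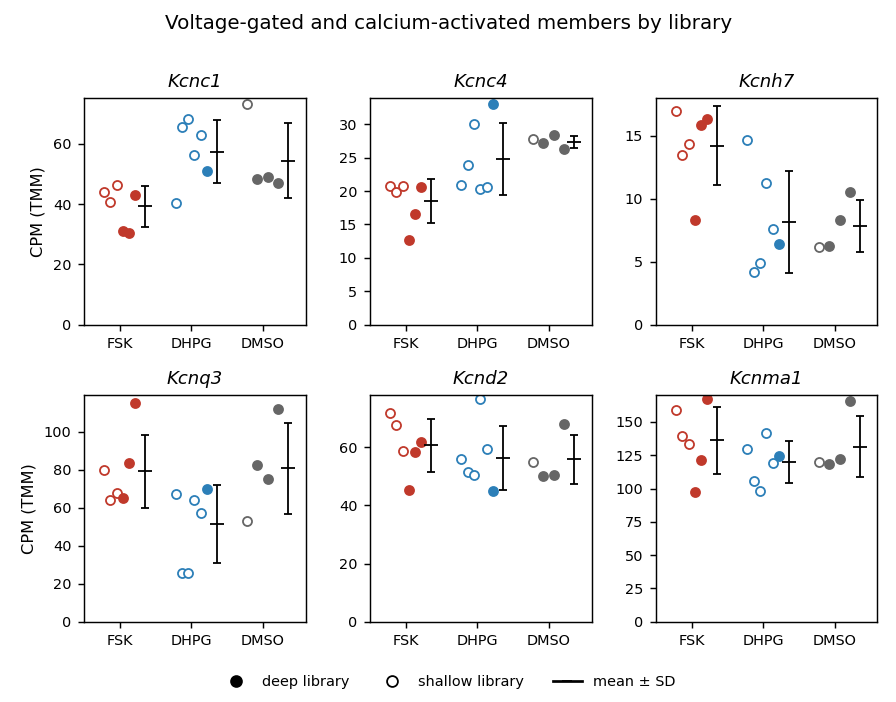
CPM (y axis) of 6 voltage-gated and calcium-activated channel genes in each FSK, DHPG and DMSO library, filled for deep and open for shallow libraries, with mean ± SD. Kcnc1 and Kcnc4 are lower in all 6 FSK than in all 4 DMSO libraries; Kcnd2 and Kcnma1 overlap between all groups.

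Overlap between FSK and DMSO was found for the other 71 channel genes. Kcnd2, the dendritic A-type gene, averaged 60.6 ± 9.15 CPM in FSK and 55.9 ± 8.44 CPM in DMSO (0.12 ± 0.15, adjusted p = 0.69), and Kcnd3 97.7 ± 4.19 CPM in FSK and 99.0 ± 9.63 CPM in DMSO (-0.02 ± 0.09, adjusted p = 0.93). The M-current gene Kcnq3 had -0.03 ± 0.29 (adjusted p = 0.96). The BK pore gene Kcnma1 averaged 136 ± 25.3 CPM in FSK and 131 ± 23.0 CPM in DMSO (0.05 ± 0.15, adjusted p = 0.88). Kcnj2 had 0.45 ± 0.41 (adjusted p = 0.56) and, with the term, 0.81 ± 0.26 (adjusted p = 0.055). A p that misses the limit does not show that these levels were alike.

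With DHPG, no channel gene differed from DMSO past the limit. In edgeR 0 of 75 passed, against 0.00582% of all features (1 of 17173), and in DESeq2 0 channel genes passed. An unadjusted edgeR p under 0.05 was found for 13 (17.3%), against 12.4% of all features. The median log2 fold change was -0.00, and with the library-set term it was -0.06. Among the smallest in p were Kcnj16 (-1.41 ± 0.46), Kcng3 (-0.59 ± 0.22), Kcnh8, an ELK gene (0.86 ± 0.33), and Kcnn3 (-0.79 ± 0.31), each with an adjusted p of 0.40. With the term these values were -0.57 ± 0.30, -0.53 ± 0.24, 0.77 ± 0.39 and -0.21 ± 0.15. Kcnj16 and Kcnn3 were low in the shallow libraries of every treatment, and 5 of 6 DHPG libraries and 1 of 4 DMSO libraries are shallow, so the set and the treatment are confounded here for the most part. Levels of Kcnj11, the pore of ATP-sensitive channels, were the only ones without overlap, higher at 12.6 to 16.2 CPM (median 13.5) in DHPG against 12.5, 8.12, 10.9 and 10.9 CPM in DMSO 1 to 4, beside 1.31% of all features in either direction (0.39 ± 0.30, adjusted p = 0.52). The authors' deposited table calls 2 channel genes lower with DHPG, Kcnj16 (-1.41) and the auxiliary subunit gene Kcne1l (-1.19). The contrasts of FSK and of DHPG with DMSO share the 4 DMSO libraries.

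Partners outside the Kcn symbols were followed in a list of 20 genes, of which 17 were tested. With FSK against DHPG 4 of them were lower and 0 higher (23.5%, against 30.8% of all features). They are Amigo1, a partner of delayed rectifier channels (-0.39 ± 0.12, adjusted p = 0.026), the pacemaker channel genes Hcn2 (-0.79 ± 0.20, adjusted p = 0.017) and Hcn3 (-0.78 ± 0.25, adjusted p = 0.032), and Cntn2, which places Shaker channels beside the node of Ranvier (-0.40 ± 0.14, adjusted p = 0.043). The median over the 17 was -0.09. Hcn2 encodes a channel opened by hyperpolarisation and by cAMP binding, and averaged 41.1 ± 12.6 CPM in FSK, 70.7 ± 12.8 CPM in DHPG and 64.0 ± 15.4 CPM in DMSO (SD, n = 6, 6 and 4). Against DMSO 0 of the 17 passed with either agent. With the library-set term Hcn2 and Hcn3 were lower with FSK (adjusted p = 0.011 and 0.043). They are 11.8% of the 17, against 9.45% of all features.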

How the data were processed

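The deposited total RNA table holds estimated counts per gene that the authors made with Salmon on GRCm38, per the submitters' processing notes; 26.6% of the values are not whole, and they were rounded for the tests. Libraries were made with a stranded total RNA kit, per the labels' protocols; no source used here gives the tool versions or the use of strand in counting. The columns named Control were taken as the DMSO samples of the same number. The authors' deposited tables give a log2 fold change, p-value and adjusted p-value made with DESeq, per the submitters' processing notes, and are quoted only where named. The miRNA tables were not used.

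Counts were tested with edgeR 4.0.16 (R 4.3.3), TMM factors, filterByExpr with a minimum count of 10, and 1 quasi-likelihood fit with robust estimation over all 16 libraries without a replicate block, and DESeq2 1.42.0 was an alternative. Log2 CPM used a prior count of 2. The code was tested on simulated data. Library sets were split at 30000000 counts.

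Members, lists and tests were chosen with earlier results of these data known. Named are all members called in a comparison, the 5 of smallest p in each, the highest of each class in mean CPM and 28 fixed members; 4 of these members are not reported here, though counts over the family include them. Kcne1l, Kcnj11, Kcnk5, Kcnk6, Kcnk10, Kcnk12 and Kcnn4 were named after their values were seen, and 22 others by range only. RefSeq (GRCm38.p6) supplied positions for all 75 and promoters for 54. Protein sequences were not analysed here.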

Additional observations from a re-analysis of the deposited data

Results flagged for a closer look

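Of 126 combinations of a named gene and a treatment group, 9 held a library far from the others of its group by Dixon's test, where chance gives about 1 in 20. DMSO 1, the shallow DMSO library, accounts for 2. It had 73.2 CPM of Kcnc1, against 47.1 to 49.0 CPM in the other DMSO libraries, and 19.0 CPM of Kcnn3, against 37.4 to 42.9 CPM. DMSO 4 was high for Kcnma1 at 166 CPM, against 118 to 122 CPM, and DMSO 2 low for Kcnt1 at 6.58 CPM, against 11.7 to 12.4 CPM.

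Among FSK libraries, FSK 6 was high for Kcna2 at 93.0 CPM, against 61.2 to 71.6 CPM in the others, and for Kcnk9 at 58.7 CPM, against 33.7 to 40.6 CPM. FSK 4 was low for Kcnh7 at 8.35 CPM, against 13.5 to 17.0 CPM, and FSK 5 low for Kcns1 at 0.364 CPM, against 0.906 to 1.44 CPM. DHPG 3 was low for Kcnip3 at 62.6 CPM, against 83.7 to 97.3 CPM. An edgeR fit that let each comparison differ between the library sets cannot decide whether the sets agree. Each comparison rests there on a lone library, DHPG 6, DMSO 1 or both. All 16 genes lower with FSK than with DHPG were lower within each set in mean log2 CPM, but by different amounts. For Kcnh3 the difference was -1.50 (deep) and -0.47 (shallow), and for Kcnab2 -0.96 and -0.30. Kcng4 went the other way, at -0.70 and -1.06. Of the higher genes, Kcna3 had 1.31 and 0.43, and Kcnj2 0.62 and 1.14.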

How the results depend on the processing

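Counts of called channel genes moved with the processing, and the cause was not tested. No shares over all features stand beside the counts in this section. Whether the shifts are particular to channel genes cannot be read from them. For FSK against DMSO the count of 0 became 4 with the DESeq2 Wald test, 9 with the library-set term, 2 with the replicate block and 3 in the deep libraries alone, and 0 to 2 when 1 library was left out. For FSK against DHPG the 24 became 12 with library totals in place of TMM, 13 without a filter, 19 with the replicate block, 0 in the deep libraries alone, 0 in the shallow libraries alone, 0 without FSK 4 and FSK 5, and 11 without them but with the library-set term. It was 8 to 28 when 1 library was left out. With the library-set term, leaving out 1 library gave 1 to 17 for FSK against DMSO and 0 to 24 for FSK against DHPG. For DHPG against DMSO the count was 0 under every alternative run. The shallow libraries alone and the left-out libraries with the term were chosen after seeing the data. No called value of a named gene reversed its sign. Correlations of same-numbered libraries ran from -0.41 to 0.39, and 1 library correlated best with its own number. The library set was not removed from these values. The lowest came from DMSO 2 (deep) with FSK 2 (shallow), and the highest from DMSO 1 with FSK 1 (both shallow). They therefore cannot decide whether the replicate numbers pair the libraries. DMSO 1 and DHPG 6 are the lone libraries of their group in a set, so their spread is taken from the others. Genes under 1 CPM rest on few counts, and a difference there may go undetected.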
